A study of Mus musculus with 2 samples.

Results

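The genes described here encode the machinery that copies DNA in S phase, chosen as a list of 46 symbols named for that function and not for their values. Of these, 41 stood in the tables under the listed symbol, out of 25791 genes in all. The remaining 5, Orc2 to Orc6, stood there under older symbols (Orc2l to Orc6l) and are described beside the 41 without being counted among them. RNA was sequenced from epithelial cells of fetal mouse thymus at 15 days post coitum, sorted as EpCAM positive and as negative for CD45 and PDGFRa. The first library, titled humanCD3eTg for a human CD3E transgene, came from mice of C57BL/6J x CBA/J background. The other, titled B6J, came from C57BL/6 mice without the transgene named in its labels. The study compares epithelium that develops with thymocytes and without them. The treatment labels state that thymocytes were present for humanCD3eTg and absent for B6J, whereas mice carrying many copies of human CD3E are generally known to lack T cells. The groups are therefore called by their titles. The number of embryos behind each library is not given in the labels, and transgene and strain background cannot be told apart.

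With 1 library in each group, nothing could be tested and the spread between mice is unknown. Values are FPKM, that is fragments per gene after allowance for transcript length and library size. About 15900000 fragments in humanCD3eTg and 19800000 in B6J were estimated to lie behind the tables. Log2 ratios, humanCD3eTg over B6J, were taken on FPKM + 1. A gene was compared where its mean reached 1 FPKM, which 13493 genes and all 41 members did. Epcam, the surface marker of the sort, stood at 231.4 FPKM in humanCD3eTg and 173.5 FPKM in B6J. The label on thymocytes went against the markers, which were read in cells sorted as negative for CD45. They do not measure thymocytes in the thymus, and purity of the sort was not tested. The 14 thymocyte genes summed to 6.86 FPKM in humanCD3eTg and 162.0 FPKM in B6J, and 5 of the 9 that could be compared reached the mean of 1 FPKM through B6J alone. Of the 14, Cd3d, Cd3g, Rag2, Cd4 and Dntt were listed at 0 in humanCD3eTg, and Cd8a and Dntt in B6J.

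Before a cell divides it must copy its genome once. In G1, the origin recognition complex with Cdc6 and Cdt1 loads the MCM helicase onto DNA, and in S phase Cdc45 and the GINS complex join MCM to unwind it, while polymerases held by the sliding clamp PCNA synthesise the new strands. Most of these genes are transcribed under control of E2F factors around the start of S phase, so their mRNA is widely used as a sign of cycling cells. Fetal thymic epithelium is known to be a proliferating tissue, and thymocytes proliferate strongly at the same stage. In bulk libraries, fewer cycling cells and less RNA per cycling cell cannot be told apart.

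The replication genes were slightly lower in humanCD3eTg as a group, with little spread. Of the 41 members 31 were lower, or 75.6%, beside 55.4% of all genes compared, and 10 were higher, beside 44.6%. The median log2 ratio was -0.21, beside -0.05 for all genes. The middle 50% of members lay between -0.31 and -0.01, and the middle 50% of all genes between -0.30 and 0.18. Differences were small. Only Gins3 was lower by at least 1.5-fold on FPKM + 1, beside 10.9% of all genes, and no member was higher by that amount, beside 5.95%. That limit was set after earlier results of these data had put S phase genes within 2-fold. The counts at 1.5-fold and 2-fold are therefore descriptions and not independent results. On FPKM + 1 no member differed by 2-fold, beside 4.47% of all genes lower and 2.1% higher by that amount. Without the added 1, Gins3 in humanCD3eTg stood at 0.402 of its level in B6J, a difference of more than 2-fold. On FPKM + 1, 9 members were lower by at least 20%, beside 23.6% of all genes, and 1 was higher by at least 25%, beside 14.4%. These 9 were Uhrf1, Mcm3, Rpa3, Pold1, Mcm10, Mcm7, Mcm6, Cdt1 and Gins3, and the higher 1 was Gins2. The shares past each limit were thus below those of all genes, but for members lower by at least 20% the share was close to 23.6%. That count is therefore not read as a result. The share on the lower side of 0 was above that of all genes. The members were well expressed, with a median percentile among genes compared of 70.0 in humanCD3eTg and 72.3 in B6J. No background of like level was used, so the part of level in the spread and in these shares was not tested.

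The members covered a wide range of levels that was alike in both libraries. FPKM per gene ran between 1.20 for Gins3 and 206.3 for Pcna in humanCD3eTg, with a median of 19.5, and between 2.99 for Gins3 and 185.0 for Pcna in B6J, with a median of 22.6. The order of the levels was nearly the same (Spearman's rho 0.95 across the 41 genes, beside 0.93 across all 13493). These points are genes that share the same pair of libraries, not replicates. The summed level was 1032 FPKM in humanCD3eTg and 1121 FPKM in B6J. Without Pcna, the most abundant member, the sums were 826.0 and 935.9 FPKM in humanCD3eTg and B6J.

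**Figure D1:**
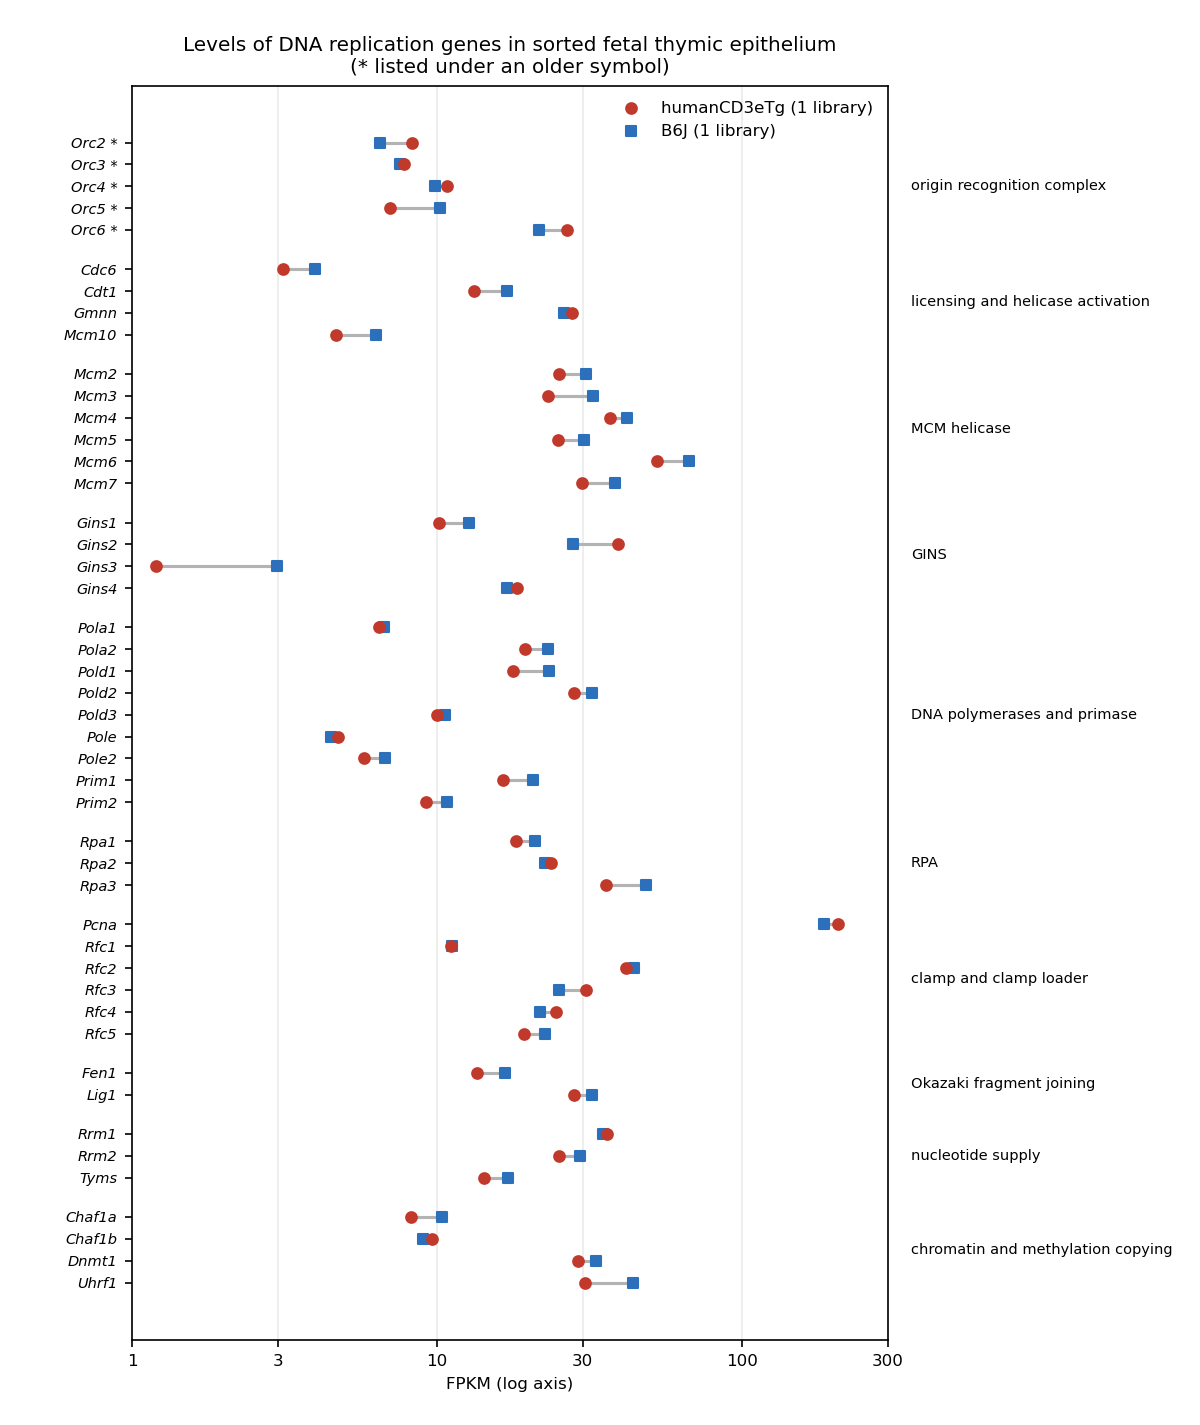
FPKM on a log axis of each replication gene in the humanCD3eTg library (red circles) and the B6J library (blue squares), grouped by role, with a grey line joining the values of a gene. Most red circles lie left of the blue squares, with Pcna highest at 206.3 and 185.0 FPKM in humanCD3eTg and B6J and Gins3 lowest at 1.20 and 2.99 FPKM, while asterisks mark genes listed under an older symbol.

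Counting error was estimated for each gene from its FPKM, its transcript length and the estimated depth. The interval of 95% given below belongs to the log2 ratio of FPKM without the added 1, and covers counting error only, not differences between sorts or mice. Of the 41 intervals 27 lay below 0, 3 lay above 0 (Gins2, Pcna and Rfc3) and 11 included 0. The same shares over all genes compared were not computed, so these counts are not a result about the members. The scaling between libraries is not covered either. Upper ends for Prim2, Rfc2, Cdc6 and Gins1 were -0.0013, -0.0144, -0.0152 and -0.0153, while the median of all genes shifted by up to 0.07 under other scalings. The fewest fragments were 44, estimated for Gins3 in humanCD3eTg. The median member rested on about 668 fragments in humanCD3eTg and 996 in B6J.

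**Figure D2:**
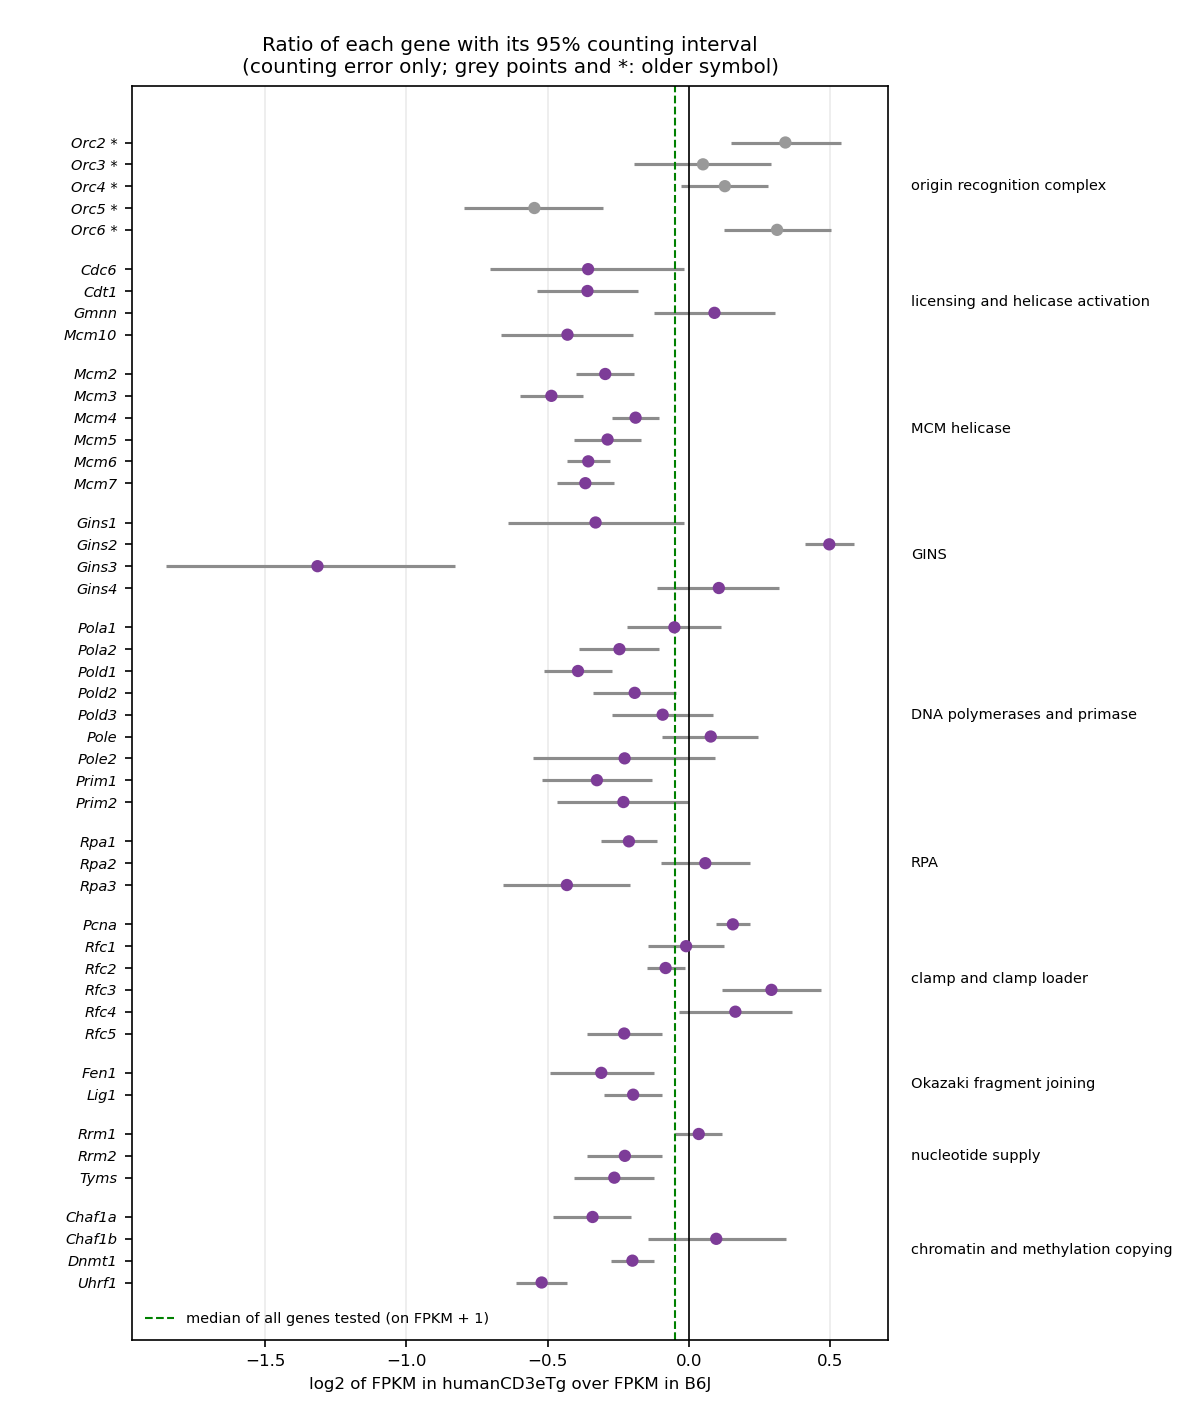
log2 of FPKM in humanCD3eTg over FPKM in B6J for each replication gene (points) with its 95% counting interval (lines), grouped by role, and the median of all genes compared as a dashed green line. The 6 MCM helicase intervals lie wholly below 0, whereas the GINS genes reach farthest on either side, with Gins3 lowest and Gins2 highest.

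The origin recognition complex marks replication origins. Of its 5 subunits measured under older symbols, 4 were higher in humanCD3eTg (80%, beside 44.6% of all genes compared). The median log2 ratio of the 5 was 0.12. Orc2 stood at 8.26 FPKM in humanCD3eTg and 6.52 FPKM in B6J (log2 ratio 0.30). Orc6, the smallest and most abundant subunit here, stood at 26.7 FPKM in humanCD3eTg and 21.5 FPKM in B6J (0.30). Orc3 and Orc4 differed little, at 7.81 and 10.7 FPKM in humanCD3eTg against 7.54 and 9.82 FPKM in B6J, and their counting intervals included 0. Orc5 went the other way, at 7.004 FPKM in humanCD3eTg and 10.2 FPKM in B6J (-0.49, counting interval -0.80 to -0.30). Orc1, the remaining subunit and outside the list of 46, stood at 1.46 FPKM in humanCD3eTg and 2.08 FPKM in B6J. It was singled out after its values were seen. The exons of Orc2, Orc4, Orc5 and Orc6 overlap other annotated genes, and use of strand by the authors is not given in the sources used here.

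Of the factors that load and activate the helicase, 3 of 4 were lower (75%, beside 55.4% of all genes compared). Cdc6, the loading ATPase, stood at 3.12 FPKM in humanCD3eTg and 3.99 FPKM in B6J (log2 ratio -0.28). Cdt1, which brings MCM to the origin, stood at 13.2 FPKM in humanCD3eTg and 16.9 FPKM in B6J (-0.34). Mcm10, which helps start unwinding, stood at 4.68 FPKM in humanCD3eTg and 6.30 FPKM in B6J (-0.36). By contrast Gmnn, which encodes geminin, the inhibitor of Cdt1 that accumulates after origins have fired, stood at 27.7 FPKM in humanCD3eTg and 26.04 FPKM in B6J (0.09, counting interval -0.12 to 0.31). The level of Cdt1 was 0.475 of that of Gmnn in humanCD3eTg and 0.649 in B6J, a ratio within each library that does not depend on a scaling factor between libraries (quantile normalization can alter it).

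In the MCM helicase all 6 subunits were lower in humanCD3eTg, beside 55.4% of all genes compared. The subunits form a ring of 1 copy each. Mcm3 differed most, at 23.0 FPKM in humanCD3eTg and 32.3 FPKM in B6J (log2 ratio -0.47, counting interval -0.60 to -0.38). Mcm4 differed least, at 36.8 FPKM in humanCD3eTg and 41.9 FPKM in B6J (-0.18, counting interval -0.27 to -0.10). The other subunits lay between them. Mcm6, the most abundant, stood at 52.4 FPKM in humanCD3eTg and 67.0 FPKM in B6J (-0.35). Mcm7 stood at 29.8 FPKM in humanCD3eTg and 38.3 FPKM in B6J (-0.36), Mcm2 at 25.1 and 30.7 FPKM (-0.29) and Mcm5 at 24.9 and 30.4 FPKM (-0.28) in humanCD3eTg and B6J. The 6 subunits summed to 191.9 FPKM in humanCD3eTg and 240.7 FPKM in B6J, and their median log2 ratio of -0.32 lay between -0.36 and -0.25 under the other scalings. The most abundant subunit stood at 2.27 times the least abundant in humanCD3eTg and 2.21 times in B6J. Mcm7 shares exonic bases with Ap4m1, Cops6 and the microRNA genes Mir25 and Mir93 in the annotation.

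The promoters of these genes are shown because most replication genes are textbook E2F targets and the MCM genes moved together. RefSeq windows of assembly GRCm38.p6, 250 bases before to 50 after each annotated start, were found for 33 of the 41 members. They were searched on both strands for TTTCCCGC, TTTGGCGC, TTTCGCGC and TTTGCCGC, the forms of the E2F motif, and matches on opposite strands may overlap. A match stood in the windows of 15 of 33 members (45.5%), of 704 of 27025 genes with a window (2.61%) and of 408 of 8561 such genes that reached the mean of 1 FPKM (4.77%). The members with a match were Mcm3, Mcm5, Mcm6, Mcm7, Cdc6, Cdt1, Gins3, Rfc3, Pola1, Pold1, Pold3, Pole2, Lig1, Uhrf1 and Dnmt1. Of the other MCM2-7 genes, Mcm2 had a window with no match and Mcm4 was not matched to a window. Among the other replication factors, whose median log2 ratio was -0.03, a match stood in 7 of 22 windows (31.8%). For 4 of the members with a match the 190 bases before the start are given below, 5′ to 3′ on the strand of the gene, with motif matches in capitals. Mcm5 and Mcm6 stand for the helicase, Uhrf1 for the members with a larger difference, and Pola1 for those with a small one.
Mcm5 (chr8:75109319-75109508, + strand): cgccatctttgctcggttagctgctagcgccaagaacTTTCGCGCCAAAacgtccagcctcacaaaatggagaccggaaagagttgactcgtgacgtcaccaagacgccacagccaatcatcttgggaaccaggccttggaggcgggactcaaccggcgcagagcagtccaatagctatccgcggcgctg
Mcm6 (chr1:128359706-128359895, - strand): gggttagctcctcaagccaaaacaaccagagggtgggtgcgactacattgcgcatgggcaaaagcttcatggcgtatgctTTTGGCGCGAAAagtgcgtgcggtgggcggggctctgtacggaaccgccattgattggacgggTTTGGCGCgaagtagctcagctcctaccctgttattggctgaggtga
Uhrf1 (chr17:56304123-56304312, + strand): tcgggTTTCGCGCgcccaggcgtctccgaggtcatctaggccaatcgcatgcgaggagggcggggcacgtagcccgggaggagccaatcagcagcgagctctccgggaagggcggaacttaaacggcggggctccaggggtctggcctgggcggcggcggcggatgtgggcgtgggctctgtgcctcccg
Pola1 (chrX:93632156-93632345, - strand): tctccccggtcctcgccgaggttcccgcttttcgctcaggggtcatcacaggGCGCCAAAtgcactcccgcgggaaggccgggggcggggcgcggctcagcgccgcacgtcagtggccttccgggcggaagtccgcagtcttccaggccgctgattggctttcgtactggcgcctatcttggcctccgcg
In Mcm5 the 2 matches, on opposite strands, overlap in 1 run of capitals, and Mcm6 holds such a pair and 1 further match nearer to the start. Uhrf1 and Pola1 hold 1 match each in the stretch shown. Of the 15 members with a match 14 were lower in humanCD3eTg (median log2 ratio -0.28), and Rfc3 was higher. Of the 18 without a match 13 were lower (-0.22). Over all genes compared 57.4% of the 408 with a match and 56.9% of the 8153 without were lower, with medians of -0.05 and -0.06. A match describes the letters only and not binding.

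The GINS complex joins the helicase and had the widest range of any complex here. Gins3, its least abundant subunit transcript, stood at 1.20 FPKM in humanCD3eTg and 2.99 FPKM in B6J (log2 ratio -0.86, counting interval -1.85 to -0.83 without the added 1). Gins2 stood at 39.2 FPKM in humanCD3eTg and 27.8 FPKM in B6J (0.48, counting interval 0.41 to 0.58), the highest ratio among the members. Its annotated exons share 2758 bases with Gse1 on the opposite strand, so its level is uncertain. Gse1 itself stood at 10.2 FPKM in humanCD3eTg and 10.7 FPKM in B6J. Gins1 stood at 10.1 FPKM in humanCD3eTg and 12.7 FPKM in B6J (-0.30), and Gins4 at 18.3 and 17.0 FPKM (0.10) in humanCD3eTg and B6J. In the assembled complex each subunit is present in 1 copy, yet the Gins3 transcript stood at 0.0306 of the level of Gins2 in humanCD3eTg and at 0.107 in B6J. Cdc45, the third part of the active helicase and outside the list of 46, stood at 9.11 FPKM in humanCD3eTg and 8.78 FPKM in B6J, and was singled out after its values were seen.

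**Figure D3:**
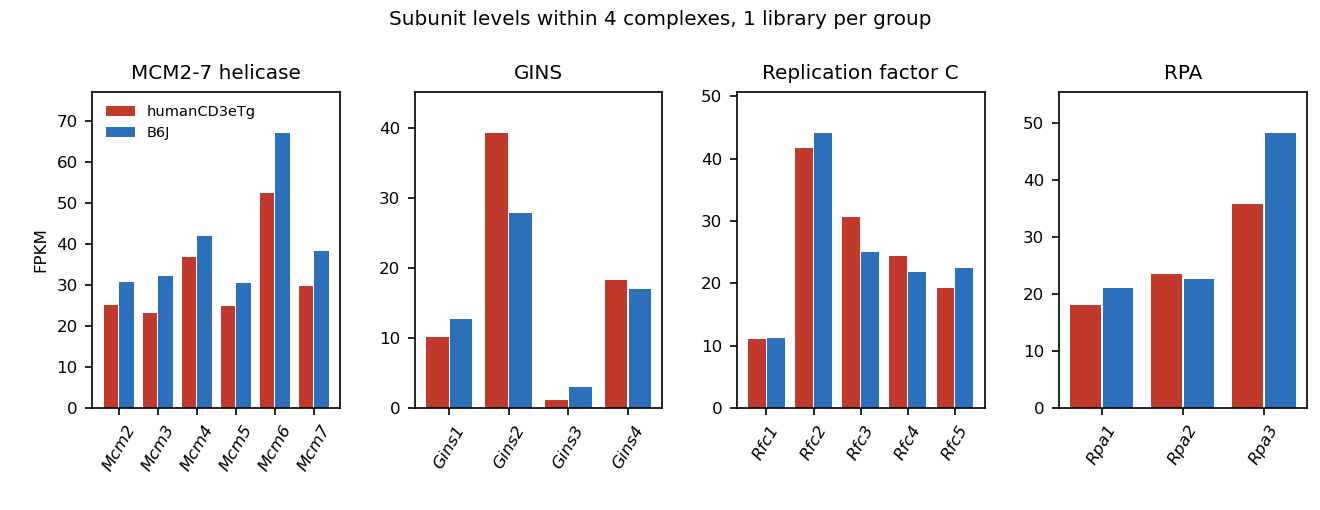
FPKM of each subunit of the MCM2-7 helicase, GINS, replication factor C and RPA in the humanCD3eTg library (red bars, left) and the B6J library (blue bars, right), 1 library per group and hence no error bars. The red bar is the lower for all 6 MCM subunits, while GINS, replication factor C and RPA each hold subunits on either side.

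Among the polymerase and primase genes 8 of 9 were lower (88.9%, beside 55.4% of all genes compared, median log2 ratio -0.20). DNA polymerase alpha with its primase makes the RNA and DNA primers. Its 4 genes were all lower by small amounts, and the largest difference was that of Prim1, the catalytic primase subunit, at 16.5 FPKM in humanCD3eTg and 20.6 FPKM in B6J (-0.31, counting interval -0.52 to -0.13). Pola2 stood at 19.5 FPKM in humanCD3eTg and 23.1 FPKM in B6J (-0.23), Prim2 at 9.21 and 10.8 FPKM (-0.21), and Pola1, the catalytic polymerase subunit, at 6.45 and 6.68 FPKM (-0.04) in humanCD3eTg and B6J. The sign of Pola1 turned positive under median centring, quantile normalization and upper quartile scaling.

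DNA polymerase delta extends the lagging strand. Pold1, its catalytic subunit, stood at 17.7 FPKM in humanCD3eTg and 23.2 FPKM in B6J (-0.37, counting interval -0.51 to -0.27). Its accessory subunit Pold2 stood at 28.2 FPKM in humanCD3eTg and 32.1 FPKM in B6J (-0.18). Pold3, a further accessory subunit, stood at 9.96 and 10.6 FPKM (-0.08) in humanCD3eTg and B6J and turned positive under quantile normalization. Catalytic and accessory subunits thus shared a direction in the deposited values, with Pold1 farthest from 0. Pole, the catalytic subunit of the leading-strand polymerase epsilon, was the only higher gene of the group, at 4.74 FPKM in humanCD3eTg and 4.49 FPKM in B6J (0.06). Pole2 stood at 5.75 FPKM in humanCD3eTg and 6.73 FPKM in B6J (-0.20), and both counting intervals of this polymerase included 0.

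RPA coats single-stranded DNA at the fork. Rpa3, its smallest subunit, stood at 35.8 FPKM in humanCD3eTg and 48.2 FPKM in B6J (log2 ratio -0.42, counting interval -0.66 to -0.21). Rpa1, the large DNA-binding subunit, stood at 18.1 FPKM in humanCD3eTg and 21.0 FPKM in B6J (-0.20). Rpa2 stood at 23.5 FPKM in humanCD3eTg and 22.6 FPKM in B6J (0.06). The complex therefore held subunits on either side of 0, and Rpa3 stood at 1.52 times the level of Rpa2 in humanCD3eTg and 2.13 times in B6J.

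The sliding clamp and its loader did not share the lower side, with 3 of 6 genes lower and 3 higher (median log2 ratio 0.07). These shares of 50% stood beside 55.4% and 44.6% of all genes compared. Pcna, the clamp itself, stood at 206.3 FPKM in humanCD3eTg and 185.0 FPKM in B6J (0.16, counting interval 0.10 to 0.22). Replication factor C opens the clamp and places it on DNA. Rfc3 stood at 30.7 FPKM in humanCD3eTg and 25.04 FPKM in B6J (0.28, counting interval 0.12 to 0.47) and Rfc4 at 24.4 and 21.8 FPKM (0.16) in humanCD3eTg and B6J. Rfc5 stood on the other side, at 19.2 FPKM in humanCD3eTg and 22.5 FPKM in B6J (-0.22). Rfc2 stood at 41.7 FPKM in humanCD3eTg and 44.1 FPKM in B6J (-0.08). Rfc1, the subunit particular to the replicative loader, was nearly equal at 11.1 FPKM in humanCD3eTg and 11.2 FPKM in B6J, and its sign changed under the 3 scalings that turned Pola1. Pcna stood at 3.94 times the level of Mcm6 in humanCD3eTg and 2.76 times in B6J. Tyms-ps stands in the tables as a copy of Tyms, and the annotation names pseudogenes Pcna-ps1 and Pcna-ps2, so reads of Pcna and Tyms may be shared with copies.

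Okazaki fragments on the lagging strand are trimmed by the flap nuclease Fen1 and sealed by DNA ligase 1. Both genes were lower, beside 55.4% of all genes compared, and 2 genes are too few to set against that share. Fen1 stood at 13.5 FPKM in humanCD3eTg and 16.7 FPKM in B6J (log2 ratio -0.29), and Lig1 at 28.1 and 32.2 FPKM (-0.19) in humanCD3eTg and B6J. Both counting intervals lay below 0. On the opposite strand, exons of Fen1 share 1909 bases with Gm10143 and those of Lig1 share 247 with Zswim9, so both levels are uncertain. Of the genes that supply deoxynucleotides, Rrm2, the subunit of ribonucleotide reductase that is known to vary with the cell cycle, stood at 25.1 FPKM in humanCD3eTg and 29.3 FPKM in B6J (-0.22). Rrm1, its partner, whose protein is known to be more stable through the cycle, stood at 35.9 FPKM in humanCD3eTg and 35.0 FPKM in B6J (0.03). Its sign turned negative when both libraries were scaled to the same total. These values are of mRNA and not of protein. Rrm2 thus stood at 0.699 of the level of Rrm1 in humanCD3eTg and 0.838 in B6J. Tyms, which makes thymidylate, stood at 14.2 FPKM in humanCD3eTg and 17.0 FPKM in B6J (-0.25).

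Chromatin and DNA methylation are copied behind the fork. Uhrf1, which recognises newly copied, hemimethylated DNA and recruits Dnmt1, had the lowest ratio of the members after Gins3, at 30.6 FPKM in humanCD3eTg and 43.9 FPKM in B6J (log2 ratio -0.51, counting interval -0.61 to -0.43). Dnmt1, the maintenance methyltransferase, stood at 28.9 FPKM in humanCD3eTg and 33.2 FPKM in B6J (-0.19). Uhrf1 was at 1.06 times the level of Dnmt1 in humanCD3eTg and at 1.32 times in B6J. The subunits of chromatin assembly factor 1, which places histones H3 and H4 on new DNA, lay on either side. Chaf1a stood at 8.21 FPKM in humanCD3eTg and 10.4 FPKM in B6J (-0.31), with exons that share 4648 bases with Ubxn6, and Chaf1b at 9.63 and 9.00 FPKM (0.09, counting interval -0.15 to 0.34) in humanCD3eTg and B6J.

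Replication genes outside the list lay on either side of 0. Of 26 other replication factors 13 were lower and 13 higher, shares of 50% beside 55.4% and 44.6% of all genes compared, and their median of -0.03 changed sign under other scalings (-0.07 to 0.06). Chtf18 and Dscc1, subunits of an alternative clamp loader that uses the small Rfc subunits, stood at 9.48 and 8.05 FPKM in humanCD3eTg against 4.95 and 4.66 FPKM in B6J (log2 ratios 0.82 and 0.68). Rnaseh2c, a subunit of the nuclease that removes ribonucleotides from DNA, stood at 49.4 FPKM in humanCD3eTg and 83.7 FPKM in B6J (-0.75). These 3 were the only ones of the 26 to differ by 1.5-fold. Top2a, the topoisomerase that untangles copied chromosomes and acts up to mitosis, stood at 48.3 FPKM in humanCD3eTg and 43.1 FPKM in B6J (0.16). Among 16 further genes of nucleotide supply 10 were lower (62.5%, median -0.07, between -0.11 and 0.00 under other scalings). Tk1, the S phase thymidine kinase, differed most, at 20.3 FPKM in humanCD3eTg and 28.8 FPKM in B6J (-0.48), followed by Rrm2b, the p53-responsive reductase subunit, at 3.42 and 2.32 FPKM (0.42) and the nucleotide kinase gene Cmpk1 at 36.2 and 29.2 FPKM (0.30) in humanCD3eTg and B6J. Of 11 further chromatin assembly genes 7 were higher (63.6%, beside 44.6% of all genes compared). Their median was 0.10, between 0.06 and 0.17 under other scalings. Among the 7 were the histone chaperone genes Asf1a, at 17.2 FPKM in humanCD3eTg and 12.7 FPKM in B6J, and Nasp, at 81.1 and 62.8 FPKM in humanCD3eTg and B6J. Hells, a chromatin remodeller needed for DNA methylation, was lower, at 10.1 FPKM in humanCD3eTg and 13.9 FPKM in B6J (-0.43).

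Genes of the next cell cycle phase lay on either side of 0 with a median above it. Of 28 genes of G2 and mitosis 10 were lower and 18 higher (64.3%, beside 44.6% of all genes compared), and the median log2 ratio was 0.09 (0.05 to 0.16 under other scalings), beside -0.21 for the replication members. No test of that difference was possible with 1 library per group. Cdk1, the mitotic kinase, stood at 31.2 FPKM in humanCD3eTg and 21.5 FPKM in B6J (0.52), and Ccnb1, its cyclin partner, at 34.4 and 27.2 FPKM (0.33) in humanCD3eTg and B6J. Cdk1, with the highest log2 ratio of the 28, stood at 1.246 times the level of Mcm2 in humanCD3eTg and 0.6995 times in B6J. Mki67 stood at 1.007 times the level of Mcm2 in humanCD3eTg and 1.033 times in B6J, nearly the same. Prc1, a spindle midzone gene, stood at 29.6 FPKM in humanCD3eTg and 21.7 FPKM in B6J (0.43). Foxm1, a transcription factor of G2 genes, and Mki67, the proliferation marker, were lower, and Foxm1 lay farthest from 0 in this list, at 13.2 and 25.2 FPKM in humanCD3eTg against 19.6 and 31.7 FPKM in B6J (-0.54 and -0.32). An E2F motif match stood in 1 of 23 windows of this list (4.35%), a share near the 4.77% of compared genes with a window.

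The regulators of the G1 to S transition were higher in 19 of 29 cases (65.5%, beside 44.6% of all genes compared). Their median log2 ratio was 0.11 (0.07 to 0.18 under other scalings). Ccnd1, which encodes cyclin D1, stood at 6.39 FPKM in humanCD3eTg and 3.16 FPKM in B6J (0.83). Cdkn1a, which encodes the inhibitor p21 that also binds PCNA, stood at 131.4 FPKM in humanCD3eTg and 77.4 FPKM in B6J (0.76). Myb, a transcription factor of progenitors including early thymocytes, was lower, at 1.96 FPKM in humanCD3eTg and 9.66 FPKM in B6J (-1.85). E2f2, singled out after its values were seen, was the only other regulator lower by 1.5-fold, at 1.60 FPKM in humanCD3eTg and 3.25 FPKM in B6J (-0.71).

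**Figure D4:**
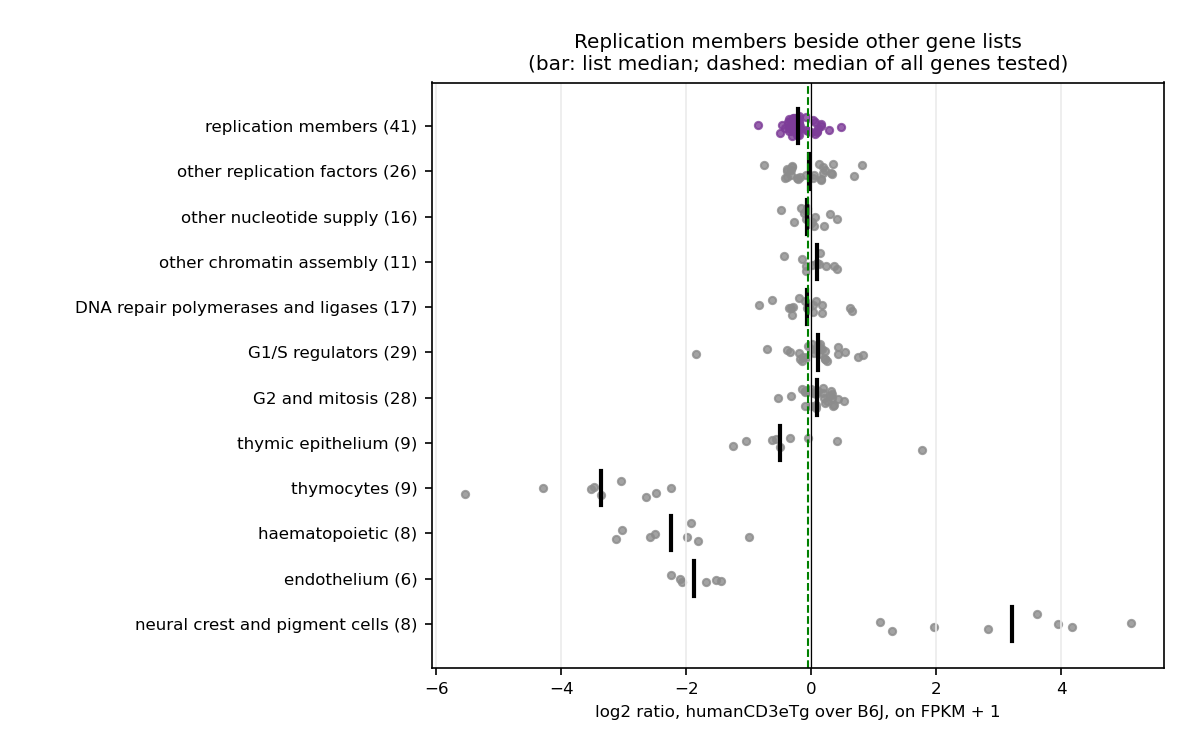
log2 ratios of humanCD3eTg over B6J on FPKM + 1 for the 41 replication members (purple) and for genes of other lists (grey), 1 point per gene compared and the number of genes in parentheses. Black bars are list medians, at -0.21 for the members and 0.09 for G2 and mitosis, and the dashed line is the median of all genes compared. Bars of the thymocyte, haematopoietic, endothelial and neural crest and pigment cell lists rest partly on genes that passed the filter through 1 library. Those bars are not results about these lists.

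Summed levels of the marker lists of other cells that could contribute cycling cells differed more than that of the replication genes, which was 0.921 of the B6J sum in humanCD3eTg. The 14 thymocyte genes reached 0.0424 of the B6J sum, and Ptcra, Rag1 and Cd3e stood at 1.02, 0.127 and 1.08 FPKM in humanCD3eTg against 8.60, 8.35 and 10.6 FPKM in B6J. The 8 haematopoietic genes summed to 6.70 FPKM in humanCD3eTg and 74.97 FPKM in B6J, with none listed at 0, and the 7 endothelial genes to 6.29 and 39.4 FPKM in humanCD3eTg and B6J. The 8 neural crest and pigment cell genes summed to 167.3 FPKM in humanCD3eTg and 9.76 FPKM in B6J, where Mlana was listed at 0. Of the genes compared, 5 of 9 thymocyte, 6 of 8 haematopoietic and 3 of 6 endothelial genes were below 1 FPKM in humanCD3eTg, and 4 of 8 neural crest and pigment cell genes were below 1 FPKM in B6J. Those genes passed the mean of 1 FPKM through the library in which they were high, so no count by direction or median is given for these lists. The 9 thymic epithelial genes summed to 5044 FPKM in humanCD3eTg and 5241 FPKM in B6J, or 0.962 of the B6J sum. Of these 9 genes 7 were lower (77.8%, beside 55.4% of all genes compared, median log2 ratio -0.51). Foxn1 stood at 43.7 FPKM in humanCD3eTg and 91.1 FPKM in B6J, and Krt5 at 955.5 and 280.2 FPKM in humanCD3eTg and B6J. The part of these cells in the levels of the replication genes was not tested.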

How the data were processed

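RNA of sorted fetal thymic epithelium was sequenced as 1 library per group, titled humanCD3eTg and B6J. The authors deposited 1 FPKM value for each of 25791 gene symbols per library. Per the submitters' processing notes, TopHat2 2.0.8, Bowtie2 2.1.0, Cufflinks 2.1.1 and build mm9 were used, in roles that the notes do not state. Annotation, filters and use of strand: not given in the sources used here. Groups follow the titles.

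The members and all gene lists were chosen with earlier results of these data known. Log2 ratios, humanCD3eTg over B6J, were taken on FPKM + 1 where a gene averaged 1 FPKM or more, which understates differences of low genes. With 1 library per group no test was made. The computation was tested on simulated data. Members are all named. Of each other list the 3 largest absolute ratios and 15 genes fixed beforehand could be named, and further genes are marked in the text.

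Depth was estimated from low values of genes with 1 annotated transcript (GENCODE M21, build GRCm38, length less 210 bases), which fall on steps worth 1 fragment. One fragment was worth 0.0627 FPKM over 1 kb in humanCD3eTg and 0.0505 in B6J. Of 303 and 376 such values in humanCD3eTg and B6J, 58.7% and 59.6% lay within 0.1 of a whole fragment, beside 20% for values spread evenly, so depth is known only roughly and no count model was fitted. The search range for the steps was set with an earlier estimate known. Counting intervals are exact Clopper-Pearson intervals of 95% on rounded fragments, using the shortest principal coding transcript. A shorter true transcript would widen them, as may be the case for Gins2, Rfc2 and Chaf1a (3900, 4995 and 5535 bases used). The interval of Rfc2, with its upper end at -0.0144, could then include 0.

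Older symbols, overlaps and promoter windows came from RefSeq and GENCODE tables of GRCm38, and no mm9 coordinates are given. Exons of 11 members overlap other annotated genes there: Mcm7, Gins2, Rfc2, Rfc4, Rfc5, Pole, Pole2, Rpa1, Fen1, Lig1 and Chaf1a. Alternatives tried were other pseudocounts (0.1 and 5), other filters (none, or a mean of 5 FPKM), 5 scalings, removal of genes listed at 0, a wider and a narrower fold limit, and 2 other sets of members. Python 3.11.15 with numpy 2.4.6, pandas 2.3.3, scipy 1.17.1 and matplotlib 3.10.9 was used.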

Additional observations from a re-analysis of the deposited data

How the results depend on the processing

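The median log2 ratio of the replication genes stayed below 0 under the 12 alternatives that bear on it, between -0.25 with libraries scaled to the same total and -0.15 with quantile normalization. Between 28 and 32 genes were lower, except 23 of 30 without members whose exons overlap other genes. The share of all genes that were lower ranged from 45.3% with no filter to 60% with the same total. With no filter only 32.5% of all genes were higher, and the rest were equal in both libraries. Quantile normalization gave 28 lower and 13 higher members beside 47.2% of all genes lower, and upper quartile scaling 29 and 12 beside 48.6%. With Orc2 to Orc6 added, a choice made after seeing the data, as was leaving out the overlapping members, 32 of 46 were lower and the median was -0.20. The largest shift of the median of all genes under a scaling was 0.07. The count of 1 member lower by 1.5-fold became 0 with a pseudocount of 5, 0 with a mean of at least 5 FPKM (Gins3 left out by the filter) and 0 at a limit of 2-fold. With a narrower limit of 20% lower or 25% higher it became 9, and the count of higher members, 0 at 1.5-fold, became 1. Across 5 scalings 28 members stayed lower, 9 stayed higher and 4 changed sign, Pola1, Pold3, Rfc1 and Rrm1. No paired analysis was possible because each group had 1 library. Depth limits Gins3, Cdc6, Gins1 and Pole2 most, with 44, 117, 142 and 137 estimated fragments in humanCD3eTg.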

Other observations

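DNA repair polymerases and ligases, known mainly from repair, lay on either side of 0, with 10 of 17 lower and 7 higher. The share of 58.8% lower stood beside 55.4% of all genes compared. The median log2 ratio was -0.07, between -0.11 and 0.05 over the scalings. Xrcc6, which encodes the Ku70 protein of end joining, stood at 14.9 FPKM in humanCD3eTg and 27.4 FPKM in B6J (-0.84). Poll, a polymerase of end joining, stood at 4.35 FPKM in humanCD3eTg and 7.24 FPKM in B6J (-0.62). Polb, the polymerase of base excision repair, stood at 29.8 FPKM in humanCD3eTg and 18.5 FPKM in B6J (0.66). Xrcc6, Polb and Poll lay farther from 0 than any of the 41 replication genes other than Gins3.

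Mesenchymal and erythroid markers were also read. Of 6 mesenchymal genes, 5 could be compared (median 0.21). Among these 5, 2 were lower and 3 higher (40% and 60%), beside 55.4% and 44.6% of all genes compared. The 6 mesenchymal genes summed to 221.6 FPKM in humanCD3eTg and 178.5 FPKM in B6J. The 6 erythroid genes found summed to 1577 FPKM in humanCD3eTg and 2608 FPKM in B6J. All 4 erythroid genes compared were lower, beside 55.4% of all genes compared (median -0.73). Their part in the levels of the replication genes was not tested.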
